A study of Mus musculus with 8 samples.

Results

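The genes described here are 41 cell cycle and proliferation genes, out of 26894 genes with a symbol in the authors' table of the array. They were chosen by symbol for their known roles, and each was read from its brightest probe, the one with the highest mean over the 8 arrays. RNA came from isolated islets of adult male βUCP2Tg mice, which overexpress *Ucp2* in β-cells under a rat *Ins2* promoter, and from islets of male WT littermates. The line had been backcrossed to C57BL/6J, and islets of both genotypes were kept for 8 h in medium with 200 mg/dL glucose. Each genotype had 4 samples, and each sample was hybridised to its own one-colour Agilent array. Whether a sample held the islets of 1 mouse or of several is not given in the sources used here, so p-values measure the spread between these samples.

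Each probe on the array is designed to bind the transcript of a single gene by its sequence. Its value here is the normalized log2 signal, which is log2 of the deposited intensity minus the 75th percentile of the same array, so that 0 is the brightness of that percentile and negative values are dimmer. Probes bind with unequal strength, so levels were compared between arrays and not between genes. A probe entered the comparison of βUCP2Tg with WT when it stood well above background on 4 or more arrays. It was called at a Benjamini-Hochberg adjusted p under 0.05 by limma over all 35363 probes tested and a fold change over 1.5. By this rule, 0.274% of the 17857 genes tested were called higher and 0.207% were called lower in βUCP2Tg islets.

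The transgene was read first. *Ucp2* had a normalized log2 signal between 6.99 and 7.71 on the βUCP2Tg arrays and between 0.92 and 1.46 on the WT arrays (log2 fold change 6.24, limma adjusted p = 9.32e-06). A second *Ucp2* probe, well above background on all 8 arrays, differed by only 0.44 on the log2 scale (adjusted p = 0.0987), and the mean of both probes gave 3.34. *Ins2*, which marks β-cells, was at 9.15 ± 0.17 (SD, n = 4) in βUCP2Tg islets and at 9.33 ± 0.04 (SD, n = 4) in WT islets. WT replicate 1 and βUCP2Tg replicate 4 stood apart from the other arrays of their genotypes. In the 16 genes of a hypoxia response list, the mean log2 difference from the average of all arrays was -0.81, -0.87 and -0.86 in replicates 1 to 3 of βUCP2Tg and 0.37 in replicate 4. It was 0.71, 0.74 and 0.81 for WT replicates 2 to 4 and -0.08 for replicate 1. The 15 acinar cell genes varied within both genotypes, with mean differences between -2.46 and 1.81 on the βUCP2Tg arrays and between -2.00 and 2.52 on the WT arrays. WT arrays lay in one row of the slide and βUCP2Tg arrays in the other, so that position and genotype cannot be told apart. Results that rest on the arrays that stood apart are given with and without them.

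A dividing cell passes from G1 through DNA synthesis in S phase and G2 into mitosis. Cyclins switch on cyclin-dependent kinases (CDKs), CDK inhibitors hold them back, and E2F transcription factors turn on the genes for DNA synthesis. Adult β-cells divide rarely, and cyclin D2 and CDK4 are known to be needed for the growth of β-cell mass after birth. In whole islets, fewer dividing cells and less RNA per dividing cell cannot be told apart, and endothelial cells, leukocytes and other islet cells contribute to the signal.

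Of the 41 genes, 39 were tested. *Ccne2*, which encodes cyclin E2, was well above background on 0 arrays, and *Kif11*, a motor of the mitotic spindle, on 3 (1 βUCP2Tg and 2 WT). *G2e3* was picked by the study itself from this contrast and is counted apart. Of the remaining 38 genes, limma called 0, with 31 higher and 7 lower in βUCP2Tg islets. Among all 17857 genes tested, 9644 were higher and 8213 lower. The median log2 fold change of the 38 was 0.22, where the median over all genes tested was 0.03. With normexp background correction, the median of the 38 was 0.09. An unadjusted p under 0.05 was reached by 10 genes in the higher direction (26.3%) and by 1 gene in the lower direction (2.63%), against 12.9% and 11.6% of all genes tested. The methods' t-test with Benjamini-Hochberg adjustment called 0 of the 38 as well, and 8 were higher and 1 was lower at its unadjusted p under 0.05. Without adjustment but with the fold limit, that test called *Mcm7*, *Mcm5* and *Rrm2* higher, where it called 2.84% of all probes higher and 5.17% lower. With all 8 arrays, limma called *Mcm7* alone of the 38 under 3 other settings. These were a filter for probes well above background on all 8 arrays (0.312% of all probes called higher and 0.435% lower), normexp background correction (0.653% and 1.65%) and an intensity trend (0.424% and 0.648%). All βUCP2Tg arrays lay above all WT arrays for 5 genes (13.2%), *Mcm2*, *Mcm3*, *Mcm5*, *Mcm6* and *Mcm7*, against 6.36% of all genes. The reverse held for 1 gene, *Pcna* (2.63%), against 6.73% of all genes. The two-sided exact permutation test gives p = 0.0286, the minimum for this number of arrays, to every gene with non-overlapping groups. It therefore adds nothing to these counts.

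**Figure D1:**
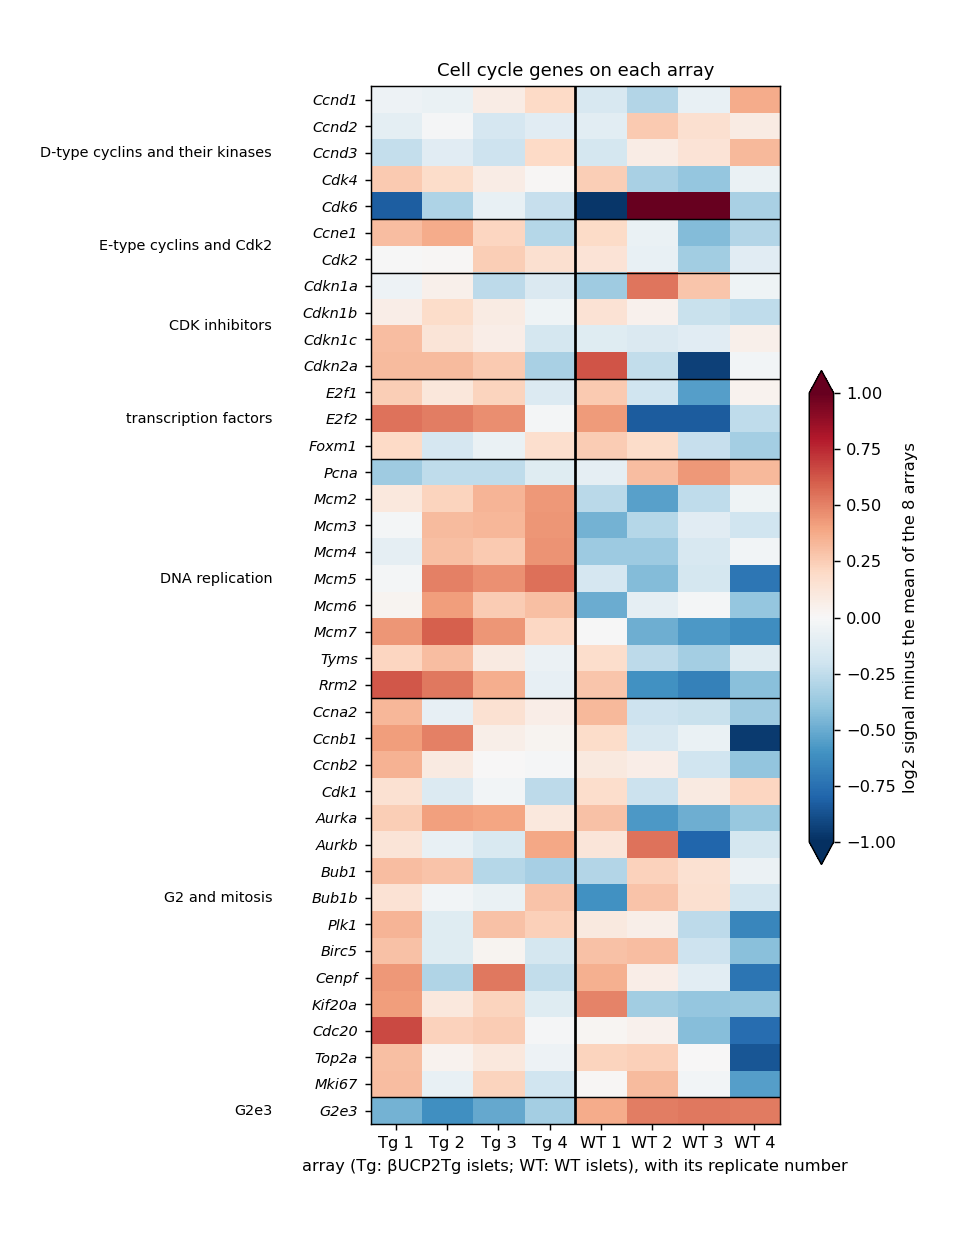
Heatmap of the 39 tested genes (rows, grouped by role) on the 8 arrays (columns, βUCP2Tg left of the line and WT right of it). Colour is the normalized log2 signal minus the mean of the gene over all 8 arrays, red for higher and blue for lower, with values beyond 1 shown at the end of the scale. The block of *Mcm2* to *Mcm7* was higher on the βUCP2Tg side, *Pcna* and *G2e3* were lower there, and *E2f2*, *Rrm2*, *Aurka* and *Kif20a* had WT replicate 1 close to the βUCP2Tg arrays.

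The genes with non-overlapping groups all belonged to DNA replication. MCM2 to MCM7 form the ring-shaped helicase that is loaded on replication origins in G1 and unwinds DNA in S phase. All 6 of their transcripts were higher in βUCP2Tg islets, by 1.38 to 1.80-fold, and none was called. They were set apart as a group with their values known. *Mcm7* had the largest difference. Its normalized log2 signal was 0.77, 0.92, 0.77 and 0.54 on βUCP2Tg replicates 1 to 4 and 0.32, -0.17, -0.25 and -0.29 on WT replicates 1 to 4. WT replicate 1 was the highest WT array and βUCP2Tg replicate 4 the lowest βUCP2Tg array, and the groups did not overlap. The difference on the log2 scale was 0.85 (standard error, SE, 0.16, limma adjusted p = 0.0612).

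*Mcm5* was at -2.19, -1.68, -1.72 and -1.63 on the βUCP2Tg arrays and at -2.35, -2.61, -2.35 and -2.90 on the WT arrays. βUCP2Tg replicate 1 lay well below the other βUCP2Tg arrays but above every WT array. The log2 fold change of *Mcm5* was 0.75 (SE 0.17, limma adjusted p = 0.0839), and 0.37 with normexp background correction and an offset of 50, which adds this constant to every intensity. *Mcm2* was at -0.87, -0.75, -0.63 and -0.54 on the βUCP2Tg arrays and at -1.24, -1.51, -1.23 and -1.01 on the WT arrays, without overlap (log2 fold change 0.55, adjusted p = 0.084). *Mcm3* was at -0.80, -0.46, -0.45 and -0.34 on the βUCP2Tg arrays and at -1.25, -1.06, -0.90 and -0.98 on the WT arrays. The groups did not overlap, and the log2 fold change was 0.54 (adjusted p = 0.0862). *Mcm6* was at 2.38, 2.78, 2.61 and 2.65 on the βUCP2Tg arrays and at 1.86, 2.26, 2.34 and 1.97 on the WT arrays, again without overlap (log2 fold change 0.50, adjusted p = 0.102). *Mcm4* was at 0.79, 1.17, 1.13 and 1.32 on the βUCP2Tg arrays and at 0.51, 0.51, 0.71 and 0.85 on the WT arrays. Here βUCP2Tg replicate 1 lay below WT replicate 4, and the log2 fold change was 0.46 (adjusted p = 0.112).

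Averaged over the 6 genes, the difference from the mean of all arrays was 0.08, 0.39, 0.35 and 0.40 on the βUCP2Tg arrays and -0.30, -0.37, -0.22 and -0.33 on the WT arrays. βUCP2Tg replicate 1 was thus the lowest βUCP2Tg array for the helicase genes, whereas it was the highest for 10 of the 15 tested genes of G2 and mitosis. WT replicate 1 and βUCP2Tg replicate 4, which stood apart in the hypoxia list, lay with the other arrays of their genotype in this average. The 4 probes of *Mcm3* had log2 fold changes from 0.45 to 0.54, and a second probe of *Mcm6* had 0.44. A second, dim probe of *Mcm7* was well above background on 3 βUCP2Tg arrays and 1 WT array.

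**Figure D2:**
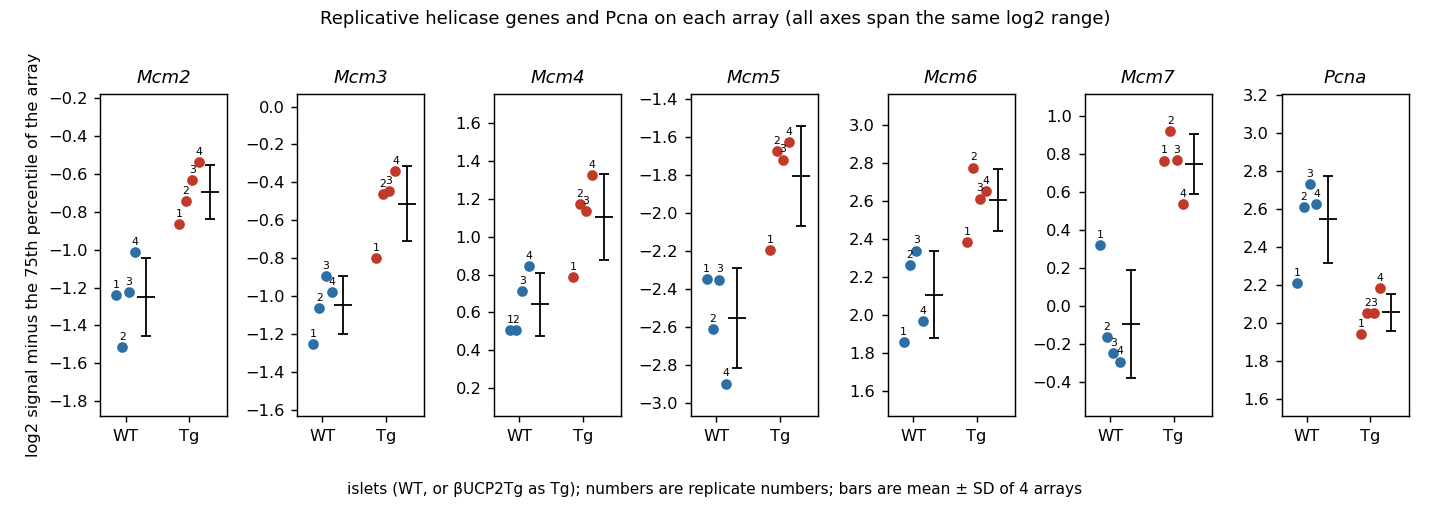
Normalized log2 signal (vertical axes, each spanning the same log2 range) of *Mcm2* to *Mcm7* and *Pcna* on the 4 WT (blue) and 4 βUCP2Tg (red) arrays, with the mean ± SD beside the points and replicate numbers above them. The groups did not overlap except for *Mcm4*, and *Pcna* ran in the opposite direction.

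*Pcna* encodes the sliding clamp that holds DNA polymerases on the template, and it is commonly read together with the MCM genes as a sign of S phase. Its normalized log2 signal was 1.94, 2.05, 2.05 and 2.18 on the βUCP2Tg arrays and 2.21, 2.61, 2.73 and 2.63 on the WT arrays. Every βUCP2Tg array lay below every WT array, although βUCP2Tg replicate 4 and WT replicate 1 were nearly level. The log2 fold change was -0.49 (SE 0.13, 95% interval -0.78 to -0.19, limma adjusted p = 0.0932), and *Pcna* was not called. *Pcna* has a single probe on the array, as have *Mcm2*, *Mcm4*, *Mcm5* and *Rrm2*. The mouse genome holds pseudogene copies of *Pcna* (*Pcna-ps1* and *Pcna-ps2*), so its value is uncertain where a copy is transcribed. Whether its probe binds a copy was not checked.

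The other members of this group make DNA precursors. *Rrm2*, the S-phase subunit of ribonucleotide reductase, was at -0.70, -0.80, -0.96 and -1.41 on the βUCP2Tg arrays and at -1.05, -1.93, -2.00 and -1.74 on the WT arrays. WT replicate 1 lay among the βUCP2Tg arrays, and the remaining WT arrays lay below all of them. Its log2 fold change was 0.71 (SE 0.24, adjusted p = 0.13). *Tyms*, thymidylate synthase, had a log2 fold change of 0.28 (95% interval -0.04 to 0.59), and WT replicate 1 again lay within the βUCP2Tg range.

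The sequences before the transcription starts of 3 helicase genes are shown because they hold matches to the E2F motif, next to *Mcm2* and *Pcna*, which hold none. E2F factors bind such sites in many S-phase genes. The letters searched, on both strands, were TTTCCCGC, TTTCGCGC, TTTGCCGC and TTTGGCGC, and capitals mark the matches. Each line gives, 5′ to 3′ on the strand of the gene, the 200 bases before a start recorded by RefSeq (build GRCm38.p6). The regions are chr8:75109309-75109508 on the plus strand for *Mcm5*, and on the minus strand chr1:128359706-128359905 for *Mcm6*, chr5:138171884-138172083 for the first of 2 starts of *Mcm7*, chr6:88898781-88898980 for *Mcm2* and chr2:132253181-132253380 for *Pcna*.
Mcm5: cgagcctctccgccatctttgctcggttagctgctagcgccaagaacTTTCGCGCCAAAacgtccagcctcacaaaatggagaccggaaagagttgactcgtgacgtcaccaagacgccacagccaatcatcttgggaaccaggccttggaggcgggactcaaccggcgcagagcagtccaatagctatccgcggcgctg
Mcm6: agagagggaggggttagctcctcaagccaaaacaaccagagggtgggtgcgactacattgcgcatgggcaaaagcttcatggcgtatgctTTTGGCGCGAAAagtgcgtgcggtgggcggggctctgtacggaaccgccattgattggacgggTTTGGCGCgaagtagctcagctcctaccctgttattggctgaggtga
Mcm7: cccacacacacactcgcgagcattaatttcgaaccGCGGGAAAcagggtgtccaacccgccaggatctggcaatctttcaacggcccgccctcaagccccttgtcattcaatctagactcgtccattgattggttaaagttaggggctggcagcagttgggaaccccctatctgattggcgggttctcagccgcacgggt
Mcm2: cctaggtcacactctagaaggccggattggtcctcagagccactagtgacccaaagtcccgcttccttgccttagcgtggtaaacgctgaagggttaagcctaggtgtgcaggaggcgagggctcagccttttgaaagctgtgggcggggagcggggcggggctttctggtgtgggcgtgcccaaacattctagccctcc
Pcna: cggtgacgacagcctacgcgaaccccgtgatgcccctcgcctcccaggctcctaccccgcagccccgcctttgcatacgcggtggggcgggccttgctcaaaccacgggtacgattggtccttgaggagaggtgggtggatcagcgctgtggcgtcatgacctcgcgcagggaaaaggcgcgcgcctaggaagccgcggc

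In *Mcm5* the matches begin at -153 and -149, counted from the first transcribed base at 0, and overlap each other. In *Mcm6* they begin at -110, -106 and -47, the first pair overlapping, and in *Mcm7* the match begins at -165. Of the 41 genes, 32 are in the RefSeq promoter table, which covers 250 bases before to 50 after each start. Of these 32, 8 hold an E2F match (*Mcm3*, *Mcm5*, *Mcm6*, *Mcm7*, *E2f2*, *Cdk1*, *Cdk2* and *Cdkn2a*), as do 2.6% of the 27025 genes in the table, counting a gene when any of its starts has a match. The cell cycle homology region, searched as TTTGAA on both strands, was found in 12 of the 32, among them *Mcm2* at -70 and the mitotic genes *Cdc20*, *Plk1*, *Ccnb2*, *Top2a* and *Mki67*, and in 20.2% of all genes in the table. A match is only a match of letters.

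Among the D-type cyclins and their kinases, which act in G1, no brightest probe reached an unadjusted p under 0.05. *Ccnd2* encodes cyclin D2. Its normalized log2 signal was 7.53, 7.62, 7.46 and 7.52 on the βUCP2Tg arrays and 7.52, 7.89, 7.79 and 7.71 on the WT arrays. WT replicate 1 lay within the βUCP2Tg range and the other WT arrays above it. The log2 fold change was -0.20 (95% interval -0.43 to 0.04, limma adjusted p = 0.262), and the other probes of *Ccnd2* gave -0.21 and -0.13. *Ccnd1*, cyclin D1, had a log2 fold change of 0.08 (95% interval -0.27 to 0.42).

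*Cdk4*, the kinase partner of the D-type cyclins, was at 4.27, 4.19, 4.08 and 4.02 on the βUCP2Tg arrays and at 4.26, 3.68, 3.62 and 3.94 on the WT arrays. WT replicate 1 was level with the highest βUCP2Tg array, and the other WT arrays lay below all βUCP2Tg arrays. The log2 fold change was 0.27 (95% interval -0.08 to 0.61), and the 4 probes of *Cdk4* gave 0.20 to 0.27. *Cdk6*, the other kinase of D-type cyclins, had the lowest log2 fold change of the 38 genes, -0.72, but with a standard error of 0.54. Its signal was -2.96, -2.44, -2.21 and -2.36 on the βUCP2Tg arrays and -3.10, -0.52, -1.01 and -2.46 on the WT arrays. Only WT replicates 2 and 3 were high, and the 4 lowest of the 8 arrays included WT replicates 1 and 4. WT replicates 2 and 3 also had the highest means of the acinar genes, 1.95 and 2.52 above the average of all arrays, but βUCP2Tg replicate 4, where *Cdk6* was low, had 1.81, and the part of acinar cells in *Cdk6* was not tested.

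*Ccnd3*, cyclin D3, was read by 3 probes that did not give the same size. The brightest had a log2 fold change of -0.18 (95% interval -0.50 to 0.15) and a second one likewise -0.18. The third (A_55_P2856671), designed on another transcript model, was at -0.54, -0.73, -0.90 and -0.47 on the βUCP2Tg arrays and at -0.09, 0.23, 0.26 and -0.06 on the WT arrays. The groups did not overlap on this probe, and its log2 fold change was -0.75 (SE 0.14, limma adjusted p = 0.0584), short of a call. Among all 35363 probes, the share called was 0.206% in the higher and 0.204% in the lower direction. Without WT replicate 1, this probe was called (log2 fold change -0.81, adjusted p = 0.0182), in a fit that called 5.14% of all probes higher and 5.67% lower, and over all alternatives its adjusted p ranged from 0.0098 to 0.206.

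For the E-type cyclins and their kinase, which drive the entry into S phase, *Ccne1* had a log2 fold change of 0.30 (95% interval -0.12 to 0.73) and *Cdk2* one of 0.20 (95% interval -0.08 to 0.48). In both genes WT replicate 1 was the highest WT array and lay within the βUCP2Tg range.

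Of the 4 CDK inhibitors, none was called on its brightest probe. *Cdkn1a* encodes p21, a target of p53 that stops cells in G1. Its brightest probe was at 2.61, 2.72, 2.40 and 2.52 on the βUCP2Tg arrays and at 2.31, 3.21, 2.95 and 2.62 on the WT arrays. The WT arrays spanned the whole βUCP2Tg range, and the log2 fold change was -0.21 (95% interval -0.64 to 0.23, limma adjusted p = 0.519). A far dimmer probe (A_55_P1986282), designed on a second transcript variant, was the only probe of the 40 genes other than *G2e3* that was called. It was at -4.32, -3.92, -4.31 and -4.58 on the βUCP2Tg arrays and at -5.46, -5.22, -5.66 and -5.23 on the WT arrays, which is 1.11 higher on the log2 scale (SE 0.16, adjusted p = 0.0456). The groups did not overlap. Before scaling, its intensity was 23.6 to 35.0 on the βUCP2Tg arrays and 9.22 to 11.9 on the WT arrays, while the lowest intensity of any probe well above background ranged from 6.93 to 11.3 across arrays. With normexp background correction and an offset of 50, the log2 fold change of this probe was 0.07 (adjusted p = 0.616), and over all alternatives its adjusted p ranged from 0.00748 to 0.616. The third probe of *Cdkn1a*, also dim, gave -0.66 (adjusted p = 0.273).

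*Cdkn1b* (p27) had a log2 fold change of 0.14 (95% interval -0.13 to 0.41) and *Cdkn1c* (p57) one of 0.16 (95% interval -0.11 to 0.43). *Cdkn2a*, which encodes p16 and ARF and accumulates with age in β-cells, was at -3.08, -3.08, -3.13 and -3.72 on the βUCP2Tg arrays and at -2.76, -3.63, -4.32 and -3.42 on the WT arrays. WT replicate 1 was the highest of all 8 arrays and WT replicate 3 the lowest, and the log2 fold change was 0.28 (95% interval -0.43 to 1.00).

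**Figure D3:**
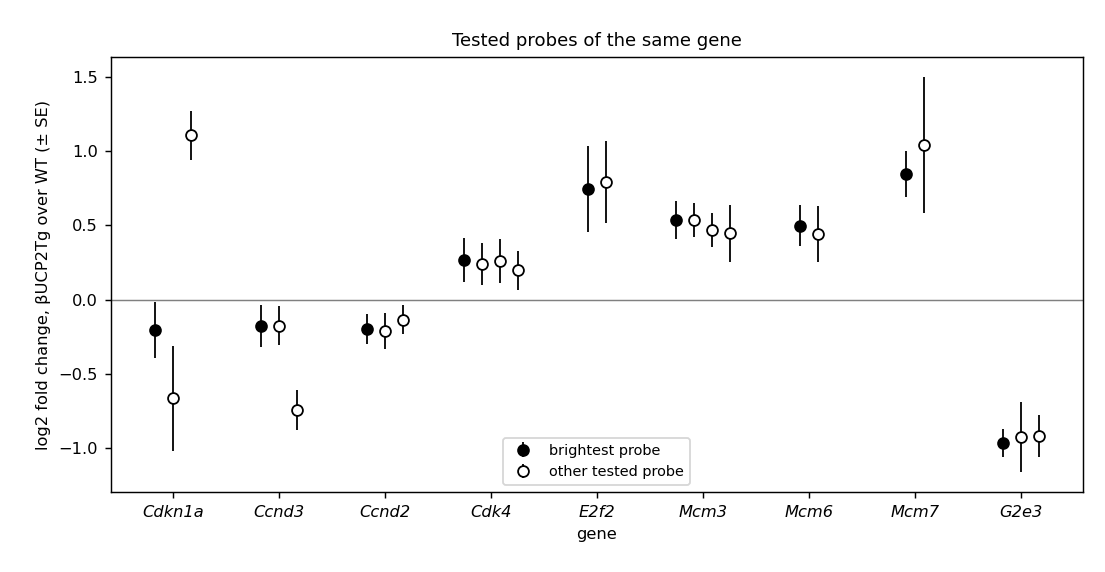
Log2 fold change of βUCP2Tg over WT (vertical axis, ± standard error, 4 arrays a group) for every tested probe of 9 genes, with the brightest probe filled. The probes of *Mcm3*, *Cdk4*, *Ccnd2* and *G2e3* lay close together, while those of *Cdkn1a* ran from -0.66 to 1.11 and 1 probe of *Ccnd3* lay at -0.75.

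Over the 18 genes with several tested probes, 13 had the same sign on all of them. The exceptions were *Ccna2*, *Cdk1*, *Cdkn1a*, *Cdkn1b* and *Tyms*.

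Among the transcription factors, *E2f2*, an activator E2F, differed most. It was at -0.00, -0.03, -0.08 and -0.57 on the βUCP2Tg arrays and at -0.12, -1.37, -1.38 and -0.80 on the WT arrays. WT replicate 1 lay well above every other WT array and βUCP2Tg replicate 4 well below the other βUCP2Tg arrays. The log2 fold change was 0.75 (SE 0.29, limma adjusted p = 0.16), and a second probe gave 0.79. *E2f1*, also an activator, had a log2 fold change of 0.23 (95% interval -0.19 to 0.64), and *Foxm1*, which turns on G2 and mitosis genes, one of 0.07 (95% interval -0.31 to 0.44).

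Of the 16 genes of G2 and mitosis, 15 were tested, with 13 higher and 2 lower, and none was called. At an unadjusted p under 0.05, 2 were higher (13.3%) and 0 lower, against 12.9% and 11.6% of all genes. *Aurka* encodes a kinase of the spindle poles. It was at -0.34, -0.19, -0.20 and -0.49 on the βUCP2Tg arrays and at -0.30, -1.17, -1.08 and -0.97 on the WT arrays. WT replicate 1 lay within the βUCP2Tg range and well above the next WT array, and the log2 fold change was 0.58 (SE 0.19, limma adjusted p = 0.128). *Cdc20*, an activator of the anaphase-promoting complex, was at -1.26, -1.69, -1.67 and -1.94 on the βUCP2Tg arrays and at -1.91, -1.88, -2.35 and -2.69 on the WT arrays. The groups overlapped by βUCP2Tg replicate 4, and the log2 fold change was 0.56 (adjusted p = 0.158), and 0.31 with normexp background correction. A second probe of *Cdc20* gave 0.26 (95% interval -0.05 to 0.58). *Ccnb1*, cyclin B1, had a log2 fold change of 0.50 (95% interval -0.06 to 1.06, adjusted p = 0.236), with WT replicate 4, at -4.36, the lowest of all arrays.

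*Mki67* and *Top2a* are the usual markers of proliferating cells. *Mki67* was at -0.81, -1.19, -0.89 and -1.31 on the βUCP2Tg arrays and at -1.11, -0.80, -1.14 and -1.66 on the WT arrays. The groups overlapped almost fully, and the log2 fold change was 0.13 (95% interval -0.33 to 0.58, limma adjusted p = 0.72). *Top2a*, the topoisomerase that untangles chromosomes, had a log2 fold change of 0.19 (95% interval -0.36 to 0.75), and its 3 tested probes gave 0.19 to 0.20. *Birc5*, survivin, had a log2 fold change of 0.01 (95% interval -0.43 to 0.46) and *Cdk1*, the mitotic kinase, one of -0.13 (95% interval -0.44 to 0.17) on its brightest probe, while its other probe gave 0.35 (95% interval -0.14 to 0.83).

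The remaining mitotic genes were *Kif20a* at 0.31, *Plk1* at 0.38, *Ccna2* at 0.24, *Ccnb2* at 0.22, *Cenpf* at 0.21, *Bub1b* at 0.17, *Aurkb* at 0.15 and *Bub1* at -0.01 on the log2 fold change scale. *Aurkb* was measured above background on 4 βUCP2Tg and 2 WT arrays, and *Bub1* on 2 and 3. The spread between WT arrays was shared by many of these genes. WT replicate 4 was the lowest WT array for 9 of the 15, and βUCP2Tg replicate 4 was the lowest βUCP2Tg array for 10. On average over the 15, the WT arrays were at 0.12, 0.04, -0.19 and -0.44 from the mean of all arrays, and the βUCP2Tg arrays at 0.32, 0.05, 0.11 and -0.02.

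**Figure D4:**
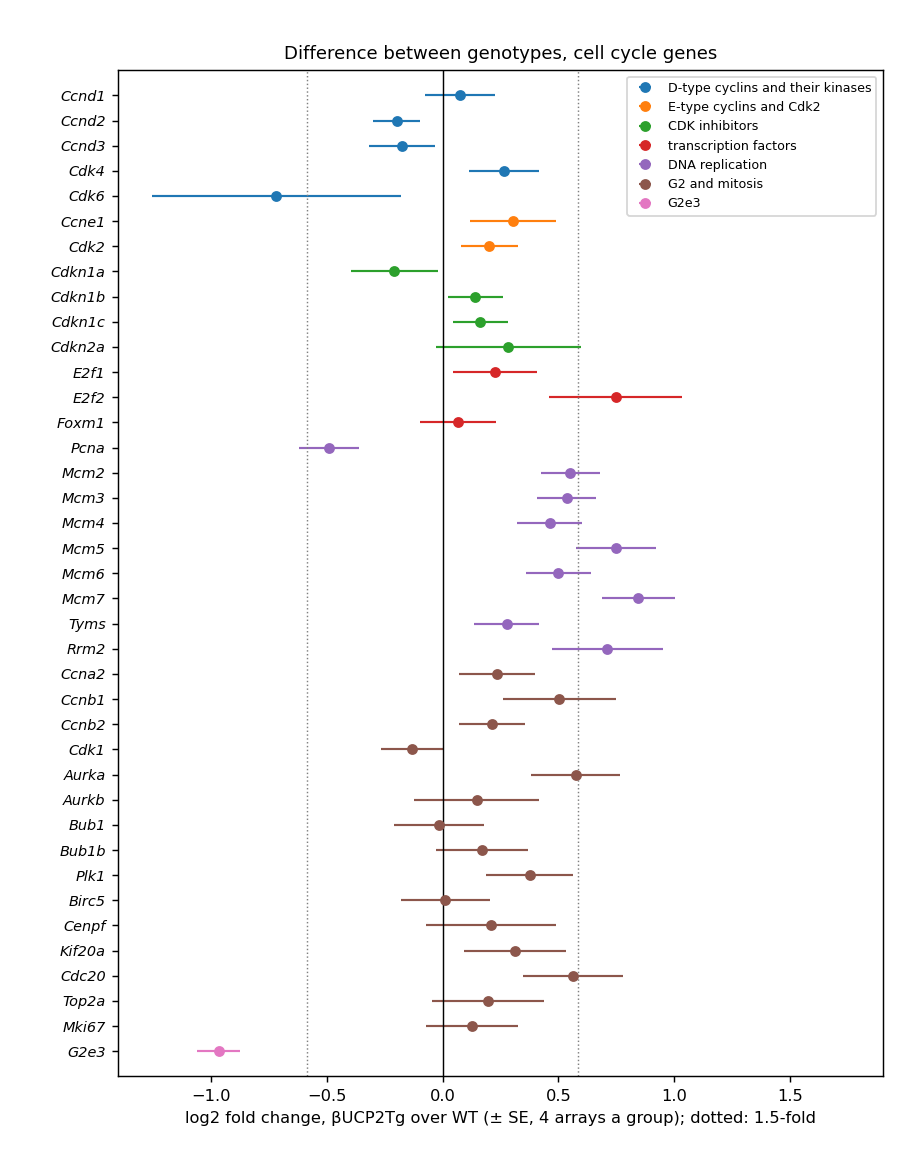
Log2 fold change of βUCP2Tg over WT (horizontal axis, ± standard error, 4 arrays a group) of the 39 tested genes (rows), coloured by role, with dotted lines at 1.5-fold. *Mcm5* and *Mcm7* lay past the upper line together with *E2f2* and *Rrm2*, *Cdk6* had the widest error, and *G2e3* lay lowest.

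*G2e3* encodes a ubiquitin ligase named for its expression in G2 and M phase. Since the study picked it from this contrast, its values are a description. It was at -1.11, -1.25, -1.15 and -0.98 on the βUCP2Tg arrays and at -0.27, -0.13, -0.12 and -0.12 on the WT arrays. The groups were far apart relative to their spread, with a log2 fold change of -0.97, and its other probes gave -0.93 and -0.92. The tested genes of G2 and mitosis had a median log2 fold change of 0.21.

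Several of these differences turned on the arrays that stood apart. Over the 38 genes, WT replicate 1 was the highest WT array for 19 and βUCP2Tg replicate 4 the lowest βUCP2Tg array for 20. Without WT replicate 1, limma called 5 of the 38 higher and 1 lower, where 6.89% of all genes were called higher and 4.55% lower. The genes called were *Mcm7* (log2 fold change 0.98), *Mcm5* (0.82), *E2f2* (1.01), *Rrm2* (0.92), *Aurka* (0.77) and *Pcna* (-0.60). Without βUCP2Tg replicate 4 alone, *Mcm7* was called higher (log2 fold change 0.92, adjusted p = 0.0347) and no other gene of the 38, beside 1.38% of all genes called higher and 2.14% lower. With both arrays left out, the 6 genes were called again, *Kif20a* was called in addition, and the share of all genes called was 9.22% higher and 6.46% lower. The log2 fold changes were then 1.06 for *Mcm7*, 0.76 for *Mcm5*, 1.14 for *E2f2*, 1.07 for *Rrm2*, 0.83 for *Aurka* and -0.64 for *Pcna*. The median over the 38 genes was 0.36 without WT replicate 1 and 0.38 without both arrays. *Mcm2*, *Mcm3*, *Mcm4* and *Mcm6* were not called in either fit, with fold changes under 1.5.

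**Figure D5:**
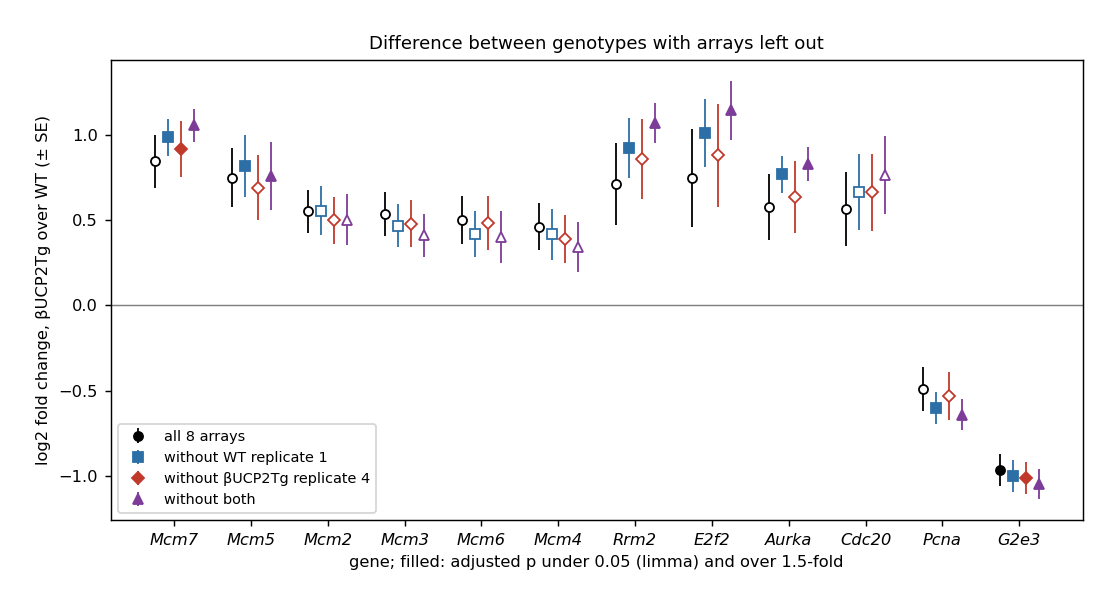
Log2 fold change of βUCP2Tg over WT (vertical axis, ± standard error) of 12 genes with all 8 arrays, without WT replicate 1, without βUCP2Tg replicate 4 and without both, with filled symbols for called values. *E2f2*, *Rrm2* and *Aurka* moved up when WT replicate 1 was left out, and *Mcm2*, *Mcm3*, *Mcm4* and *Mcm6* moved little.

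Genes around this set were read from lists chosen by role, and none of their members was called. Of 41 further replication genes, 40 were tested. At an unadjusted p under 0.05, 10 were higher (25%) and 4 lower (10%), against 12.9% and 11.6% of all genes, with a median log2 fold change of 0.15. The largest differences were in *Mcm10*, a helicase assembly factor, at -0.93 (limma adjusted p = 0.148), and *Pola2*, a polymerase α subunit, at -0.62 (adjusted p = 0.141). *Mcm10* was at -2.91, -2.82, -2.67 and -2.43 on the βUCP2Tg arrays and at -2.33, -0.81, -1.55 and -2.43 on the WT arrays. It ran opposite to *Mcm2* to *Mcm7*, and as in *Cdk6*, WT replicates 2 and 3 were the high arrays.

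Of 45 further mitosis genes, 39 were tested, with 9 higher (23.1%) and 1 lower (2.56%) at an unadjusted p under 0.05 and a median log2 fold change of 0.28. *Aspm* had 0.91 with a standard error of 0.63. *Nek2*, 1 of the 9 higher genes, had 0.96, but it was well above background on 4 βUCP2Tg arrays and 1 WT array. It passed the filter only through the βUCP2Tg arrays, so its WT level and fold change are uncertain. Of 30 genes of G1 control, 3 were higher (10%) and 4 lower (13.3%) at an unadjusted p under 0.05, shares near those of all genes, with a median of 0.02. Here *Cdkn2c*, the inhibitor p18, had 0.71 (adjusted p = 0.136) and *Tfdp2*, a partner of E2F factors, 0.47 (adjusted p = 0.229). Of 20 subunits and regulators of the APC/C and SCF ubiquitin ligases, 2 were higher (10%) and 1 was lower (5%) at an unadjusted p under 0.05, with a median of 0.06, and the largest values were 0.38 for both *Btrc* and *Cdc26*.

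Of 19 p53 target genes, 4 were higher (21.1%) and 3 lower (15.8%) at an unadjusted p under 0.05, with a median of 0.12. *Phlda3*, an inhibitor of AKT, was at 1.73, 2.20, 1.79 and 1.39 on the βUCP2Tg arrays and at 0.99, 0.74, 0.61 and 0.44 on the WT arrays. The groups did not overlap, and the log2 fold change was 1.09 (SE 0.19, limma adjusted p = 0.0522), just short of a call. The value for *Plk2*, a polo-like kinase, was -1.01 (adjusted p = 0.0832), with βUCP2Tg replicate 4 level with WT replicate 1. *Cdkn1a* on its brightest probe did not share the direction of *Phlda3*.

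Markers of other cells were read beside these genes. The summed level of the 8 macrophage and leukocyte genes, on the linear scale relative to the 75th percentile, was 10.81 to 12.6 on the βUCP2Tg arrays and 15.03 to 16.34 on the WT arrays. Such a sum weighs the brightest genes most. Of the 8 genes, 2 were higher and 6 lower. At an unadjusted p under 0.05, 1 was higher (12.5%) and 2 were lower (25%), against 12.9% and 11.6% of all genes. Within that list *Cd14* was called lower (log2 fold change -2.10, limma adjusted p = 0.048), whereas *C1qa* was at 0.66. The 8 endothelial genes summed to 22.9 to 27.9 on the βUCP2Tg arrays and 24.3 to 30.2 on the WT arrays, and 7 genes of other endocrine cells to 799 to 1010 and 698 to 835. Both pairs of ranges overlapped, and 0 genes of these lists were called. Of the 7 endocrine genes, however, 6 were higher in βUCP2Tg islets, 3 of them at an unadjusted p under 0.05 and without overlap (42.9%, against 12.9% and 6.36% of all genes). The mean log2 difference of the 7 genes from the average of all arrays was 0.12 to 0.25 on the βUCP2Tg arrays and -0.34 to -0.03 on the WT arrays. The 16 hypoxia genes summed to 122 to 212 and 178 to 304, and 12 of them were lower at an unadjusted p under 0.05 (75%, against 11.6% of all genes). Of 10 β-cell genes, 0 were higher and 2 lower (20%) at an unadjusted p under 0.05. Of 6 ductal genes tested, 1 was higher (16.7%) and 2 were lower (33.3%). Of 7 stellate and fibroblast genes, 1 was higher (14.3%) and 0 lower. The part of these cells and of the hypoxia response in the values above was not tested.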

How the data were processed

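The authors hybridised Cy3-labelled RNA of each sample to an Agilent SurePrint G3 mouse array and processed the scans with Feature Extraction. The labels name version 9.1, and the file headers name 10.7.3.1. The deposited scanner files give background-subtracted spot intensities, linear and not scaled between arrays. The authors also deposited normalized values on the log2 scale from GeneSpring GX, which served to choose the brightest probe of each gene and as an alternative. That table also holds the authors' fold changes and p-values, which were not used.

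From the scanner files, control spots and spots marked as outliers were dropped, intensities were put on the log2 scale and scaled by subtracting the array's own 75th percentile, and replicate spots were averaged per probe. Of 56605 probes, 33 had no value on some array and are missing there. Well above background means that 50% or more of a probe's kept spots were marked so. The genotypes were compared by lmFit and eBayes of limma 3.58.1 (R 4.3.3), and p was adjusted by Benjamini-Hochberg over the 35363 probes tested. The fit was checked on simulated data with independent noise, which lacked deviations shared by many probes of an array. Plots were drawn with matplotlib 3.10.9. The 41 genes, the gene lists and the alternatives were chosen with earlier results of these data known. Genes named from the lists of cell cycle roles and p53 targets are those called, or otherwise the 2 with the largest change, picked from the data, and those named from the marker lists have the highest mean signal. *Cd14* falls outside this rule and was named after its value was seen. The values of 1 gene of the lists are not reported here. Precision is limited by having 4 arrays a group. Same-numbered arrays of the genotypes were not paired (closing section). Promoter sequences are from RefSeq (GRCm38.p6) and the array's annotation names mm9, so no coordinates of probes are given. Alternatives changed the filter, scaling, background correction, test, fold limit, probe choice, replicate block and the arrays used.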

Additional observations from a re-analysis of the deposited data

Results flagged for a closer look

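In each group of 4 arrays, the gap between the highest or lowest array and its nearest neighbour was set against the range of the group, and a share above Dixon's 95% critical value marks an array that stands apart. Of 88 groups examined (both genotypes, for the 39 tested genes, *Ucp2* and the further probes of *Cdkn1a* and *Ccnd3* described above), 6 passed, where chance gives about 1 in 20. WT replicate 1 stood apart in *Kif20a* (share 0.959, -2.49 against -3.38 to -3.34 on the other WT arrays) and in *G2e3* (0.927, -0.27 against -0.13 to -0.12). βUCP2Tg replicate 4 stood apart in *E2f2* (0.86, -0.57 against -0.08 to -0.00) and in *Cdkn2a* (0.916, -3.72 against -3.13 to -3.08). βUCP2Tg replicate 1 was low in *Mcm5* (0.841, -2.19 against -1.72 to -1.63), and WT replicate 4 was high in *Cdkn1c* (0.857, -1.16 against -1.36 to -1.33).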

How the results depend on the processing

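By the scaling, filter and test described above, none of the 38 tested genes other than *G2e3* was called with all 8 arrays. *Mcm7* alone was called higher (1 gene) when probes had to be well above background on all 8 arrays, with normexp background correction and with an intensity trend in limma, where 0.312%, 0.653% and 0.424% of all probes were called higher. Student's t-test without adjustment called 3 higher (*Mcm7*, *Mcm5* and *Rrm2*), beside 2.84% of all probes. Leaving out each array in turn gave 0 to 5 genes called higher and 0 to 1 called lower, and the median log2 fold change ranged from 0.17 to 0.36. With both arrays that stood apart left out, 6 were called higher and 1 lower, and the median was 0.38. With normexp correction the median was 0.09, where the median over all probes moved from -0.02 to -0.09. The other alternatives called 0 genes. *Mcm2* to *Mcm7* were higher in βUCP2Tg islets under all 21 alternatives. No direction of the 11 genes at an unadjusted p under 0.05, of *G2e3* or of *Ucp2* was reversed. Changes of filter, test, fold limit or replicate block left fold changes as they were and could not reverse a direction. The other alternatives reused the same arrays. *G2e3* was not called under the replicate block and without βUCP2Tg replicate 1, 2 or 3 or WT replicate 3. The *Cdkn1a* probe of the second variant lost its call in 11 of 20 alternatives, among them the absence of a filter (adjusted p = 0.0899) and 6 of the 8 fits that left out an array.

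Same-numbered βUCP2Tg and WT arrays deviated from their group means with correlations of 0.44, -0.05, -0.01 and -0.24 over the probes, so the numbers were not taken as pairs. With the replicate block, 0 genes were called higher and 0 lower, the median was 0.22, and over all probes the calls went from 73 higher and 72 lower to 13 and 1.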
